A study of Arabidopsis thaliana with 12 samples.

Results

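Ribosomes of the plastid translate the plastid's own mRNAs, among them those of photosystem core proteins. Their rRNA and part of their proteins are made inside the organelle, while most of their proteins are encoded in the nucleus, made in the cytosol and imported. Described here are 2 of these nuclear genes of Arabidopsis thaliana, both for proteins of the large (50S) subunit. AT1G29070 encodes plastid L34, the counterpart of a small basic protein of the bacterial large subunit. AT3G54210 encodes plastid L17, the counterpart of a bacterial protein that lies near the exit of the tunnel for the growing chain. Each was read from the single array probe that lists that gene and no other, so that 2 probes of 3439 on the array, or of 692 that list exactly 1 gene, were described.

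Total RNA of 6 wild-type (WT) and 6 psak mutant samples was hybridised, all in ecotype Columbia 0. PSI-K, which is missing in the mutant, sits in the photosystem I membrane complex at the side where light-harvesting antenna proteins attach. The question for these genes is whether their transcript level differs where that subunit is absent. Tissue, age and growth are not given in the labels, nor is the kind of mutation. Samples carry the numbers 1 to 6 within a genotype, and nothing says that they came from separate plants, so p-values measure only the spread between these samples, which may be technical. No probe lists the gene of PSI-K, so its level did not check the genotype labels.

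Values were intensities on a linear scale that ended at 100. Between 13% and 19.4% of a sample's probes were listed at exactly 0, the lowest value above 0 in a sample was 0.000983 or less, and the number of samples limits the precision. The psak samples 5 and 6 stood apart: 18.1% and 19.4% of their probes were at 0, against at most 16.5% in the other 10 samples, and their median intensity above 0 was 0.226 and 0.218, against 0.316 to 0.419. The fold changes of the tested genes are given with and without them.

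The L34 probe was dim and was listed at 0 in 6 of the 12 samples, 3 of each genotype. In WT, AT1G29070 stood at 0 in samples 1, 2 and 5, at 0.0148 in sample 3, at 0.00720 in sample 4 and at 0.0537 in sample 6. In psak it stood at 0.312 in sample 1, at 0 in sample 2, at 0.183 in sample 3, at 0.0817 in sample 4 and at 0 in samples 5 and 6. Over all samples the genotypes overlapped, because both held zeros. Among samples above 0, 3 of each genotype, the lowest psak value lay above the highest WT value. How many probes with zeros were separated in this way was not counted, so the separation does not set this probe apart. Of the 2358 probes above 0 in every sample, 13.1% had genotypes that did not overlap. In total RNA, fewer cells with a transcript and less of it per cell cannot be told apart.

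In the 3 WT samples above 0, the L34 probe lay near the bottom of the array and was brighter than 0.763% to 4.66% of the probes that had a signal there. In the 3 psak samples above 0 it was brighter than 6.31% to 37.5% of them. A mixture of zeros and signals was found for 943 of the 3439 probes (27.4%). Of these, 23 were at 0 in exactly 6 samples, and 8 of the 23, AT1G29070 among them, in 3 samples of each genotype.

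**Figure D1:**
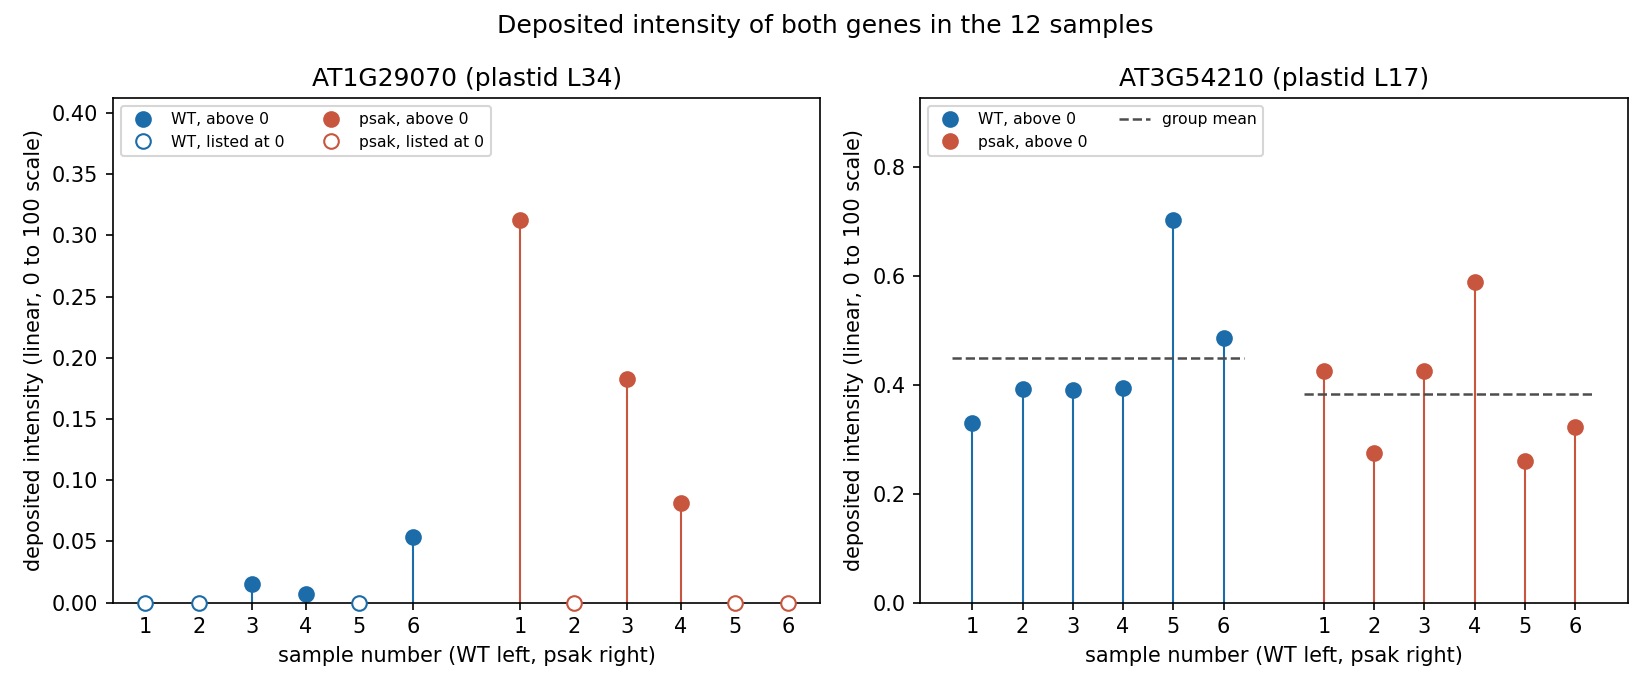
Deposited intensity (linear scale, vertical axis) of AT1G29070, left, and AT3G54210, right, in WT samples 1 to 6 (blue) and psak samples 1 to 6 (red). Each point is 1 sample, open points are listed at 0, and dashed lines, drawn for AT3G54210 only, are group means of 0.449 and 0.382. AT1G29070 has 3 open points in each genotype and its highest value, 0.312, in psak 1, while the AT3G54210 points of the genotypes overlap.

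How the zeros of AT1G29070 were treated set the size of its difference. With zeros left out and the other values quantile normalized on the log2 scale, the log2 fold change of psak over WT was 2.95 ± 0.81 (SE, 3 samples of each genotype), with a 95% interval of 0.98 to 4.92 (limma adjusted p = 0.0626, unadjusted p = 0.0104). This did not pass the threshold of an adjusted p under 0.05, which 14.8% of the 2993 tested probes passed, 8.12% as higher and 6.72% as lower in psak. With zeros kept and 0.1 added to every intensity before log2, the difference was 0.38 ± 0.31 with an interval of -0.30 to 1.05 (limma adjusted p = 0.490), a setting in which 13.8% of 3439 probes passed. With 0.01 added it was 0.86 ± 0.90 with an interval of -1.13 to 2.84 (limma adjusted p = 0.591).

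The share of samples above 0 was the same in both genotypes (3 of 6 and 3 of 6, Fisher's exact test, two-sided p = 1). With the zeros kept on the deposited scale, the mean intensity was 0.0835 higher in psak (exact permutation test over the 12 samples, two-sided p = 0.182, 1 of 4 such tests run, unadjusted). Thus over all 12 samples no difference of AT1G29070 was detected in the share above 0 or in the mean intensity. The fold change above describes only the samples in which the probe had a signal, and it did not pass the threshold. Wherever zeros were left out its direction could not reverse, since every psak value above 0 exceeded every WT value.

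Of 12 fits with 1 sample left out, 1 moved the call for AT1G29070. Without WT sample 6, the brightest of its WT samples, the difference was 3.65 and passed (limma adjusted p = 0.0388). In the other 11 fits the gene did not pass. Without WT sample 4 or psak sample 1 the difference fell to 2.37 and 2.42 (limma adjusted p = 0.131 and 0.145). Without psak samples 5 and 6, both at 0 for this probe, it was 2.94 and passed (limma adjusted p = 0.0377). In that fit the unadjusted p was 0.0107, against 0.0104 with all samples, and 947 probes of the array passed in place of 444.

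The L17 probe gave a steadier signal, above 0 in all 12 samples and with a mean over them of 0.415, between the array's median probe and its brightest 25%. AT3G54210 stood at 0.329, 0.392, 0.391, 0.394, 0.701 and 0.485 in WT samples 1 to 6. In psak samples 1 to 6 it stood at 0.426, 0.275, 0.424, 0.588, 0.259 and 0.322. WT 5 was the highest of all samples and psak 4 the next, while psak 5 and psak 2 were the lowest, and the genotypes overlapped over most of their range. Of the 2358 probes above 0 in every sample, 13.1% had genotypes that did not overlap.

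No difference between WT and psak was detected for AT3G54210. The mean intensity was 0.449 ± 0.133 (SD, n = 6) in WT and 0.382 ± 0.123 (n = 6) in psak, a coefficient of variation of 29.7% and 32.3%. On the log2 scale psak lay at -0.14 ± 0.23 (SE) from WT, with a 95% interval of -0.64 to 0.36 (limma adjusted p = 0.711), so that the interval of the fold ran from 0.641 to 1.28. The exact permutation test of the deposited means gave a two-sided p of 0.409. The direction of the small difference was not stable, since without psak sample 2 it was 0.03 (limma adjusted p = 0.930). Without WT sample 5 it was -0.04 and without psak samples 5 and 6 it was -0.20 (limma adjusted p = 0.930 and 0.561).

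**Figure D2:**
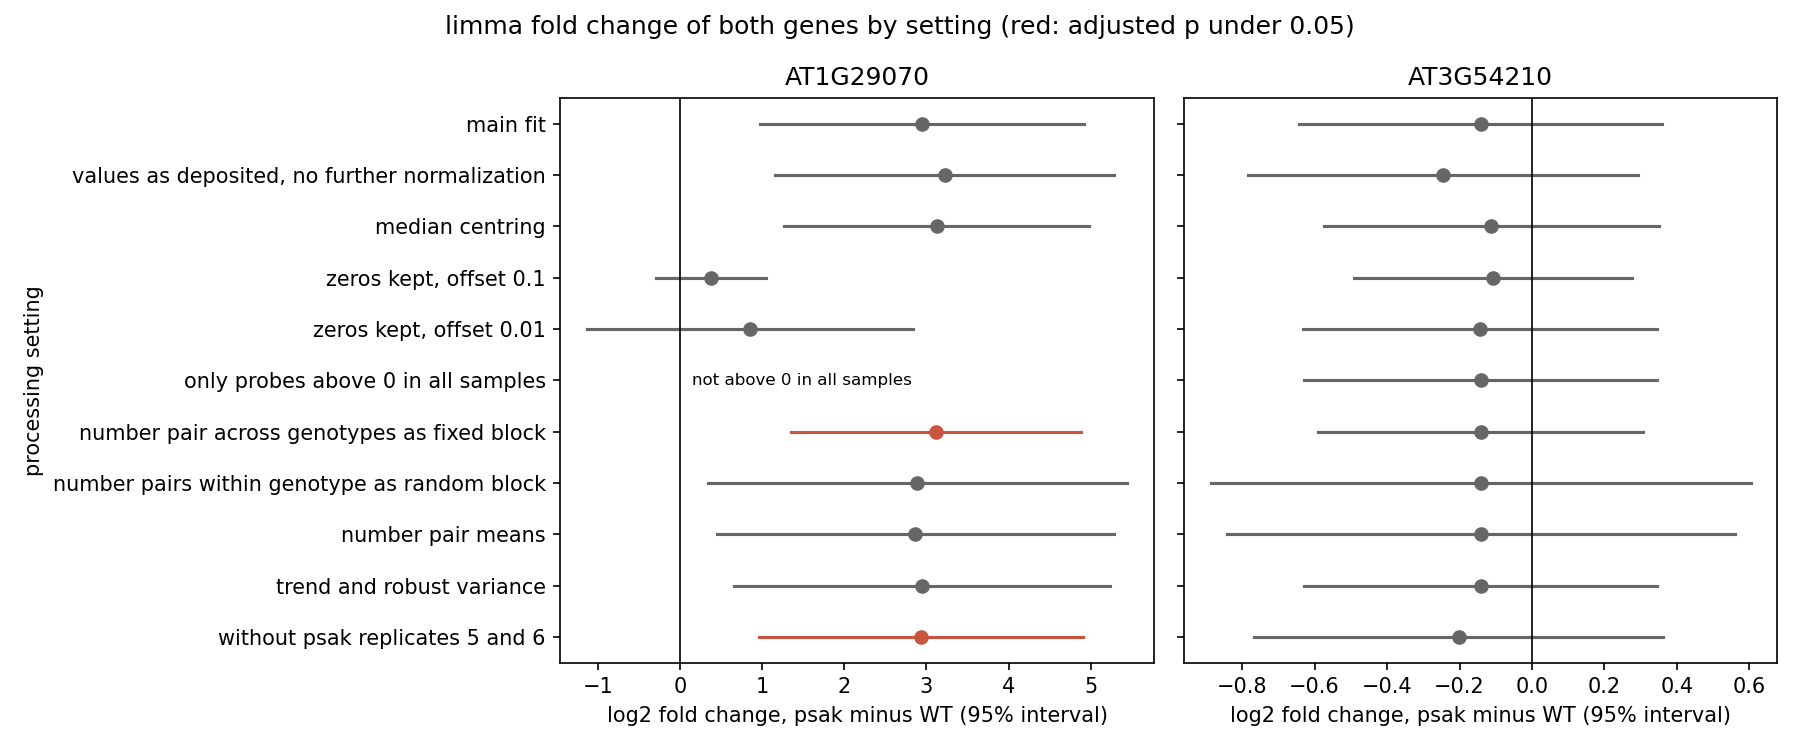
Log2 fold change of psak over WT (horizontal axis) of AT1G29070, left, and AT3G54210, right, under 11 processing settings (vertical axis), of which 1 gives no value for AT1G29070. Points are limma estimates, bars 95% intervals, and red marks an adjusted p under 0.05. AT1G29070 lies near 3 wherever zeros are left out and at 0.38 and 0.86 where they are kept, while every AT3G54210 interval drawn includes 0.

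Samples with neighbouring numbers were alike over the array, with a consensus correlation of 0.590 on the log2 scale within numbers 1-2, 3-4 and 5-6 of 1 genotype. For the probes of the members the likeness varied from pair to pair. AT1G29070 had a signal in both samples of numbers 3-4 in WT and in psak. In the other pairs, both samples were at 0 in WT 1-2 and psak 5-6, and only 1 sample was above 0 in psak 1-2 and WT 5-6. AT3G54210 was nearly equal in WT 3 and 4, with a normalized log2 difference of 0.0063, but psak 1 and 2 differed by 0.81. In 4 of its 6 number pairs the difference was larger than the median of probes of similar brightness (mean intensity 0.288 to 0.587), which was 0.12 to 0.28. As many probes lie above a median as below it, so this count does not set the probe apart. The count was 5 of 6 for AT4G01310, 3 of 6 for AT5G65220 and 1 of 6 for AT3G13120, other genes of plastid ribosomal proteins.

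Within number pairs, AT1G29070 could be compared as a ratio only in numbers 3-4, where the mean intensity was 0.0110 in WT and 0.132 in psak. Its normalized log2 difference there was 3.11, and both psak samples were above both WT samples. The share of probes separated in this way in numbers 3-4 was not counted, so the separation does not set this probe apart. In numbers 1-2 both WT samples were listed at 0 against a psak mean of 0.156, and in numbers 5-6 both psak samples were at 0 against a WT mean of 0.0269. The direction in numbers 5-6 was thus opposite to that in the other pairs. It rested on WT sample 6 alone, at 0.0537, and that in numbers 1-2 on psak sample 1 alone. Samples 5 and 6 of psak were also those with the most probes at 0. With the number pair across genotypes as a fixed block, AT1G29070 passed at 3.11 on the log2 scale (limma adjusted p = 0.0409), a value equal to that of numbers 3-4, the only pair with a signal in both genotypes. With number pairs within each genotype as a random block it did not pass (2.89, limma adjusted p = 0.205, with 5.15% of probes called), nor with the mean of each pair as 1 sample (2.86, limma adjusted p = 0.264).

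For AT3G54210 the deposited means were 0.361 in WT and 0.35 in psak in numbers 1-2, 0.392 and 0.506 in numbers 3-4, and 0.593 and 0.291 in numbers 5-6. In numbers 3-4 both psak samples were higher than both WT samples, and in numbers 5-6 both were lower. The share of probes separated in this way within a pair was not counted, so the separation does not set AT3G54210 apart. AT4G01310 was also separated in numbers 3-4 and 5-6, and AT5G65220 in every pair. AT3G13120 was separated in numbers 1-2 and 5-6. The genotypes overlapped for AT3G54210 and AT4G01310 in numbers 1-2, and for AT3G13120 in numbers 3-4. Of the 2358 probes above 0 in every sample, 41.0% had a deposited log2 difference below 0 in numbers 3-4 and 84.6% in numbers 5-6. The log2 differences of the deposited values were -0.07, 0.35 and -1.01. Over the 2358 probes above 0 in every sample, the median difference was 0.29, 0.16 and -0.90 in the same pairs, so that relative to it AT3G54210 stood at -0.36, 0.18 and -0.11. Among the 801 of these probes with a brightness similar to that of AT3G54210, the median difference was 0.41, 0.23 and -1.07. In numbers 5-6, 44.4% of the 2358 probes had a lower difference than AT3G54210. The cause of its difference in these samples was not tested.

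After quantile normalization, the AT3G54210 differences were -0.46, 0.26 and -0.23. Their test against each other, the interaction of genotype and number pair, did not pass (limma F-test, adjusted p = 0.472, where 23.1% of 2757 probes passed), nor with the values as deposited (limma adjusted p = 0.0545). AT1G29070 lacked values for this test, and with 0.1 added to every intensity its adjusted p was 0.599 with limma.

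**Figure D3:**
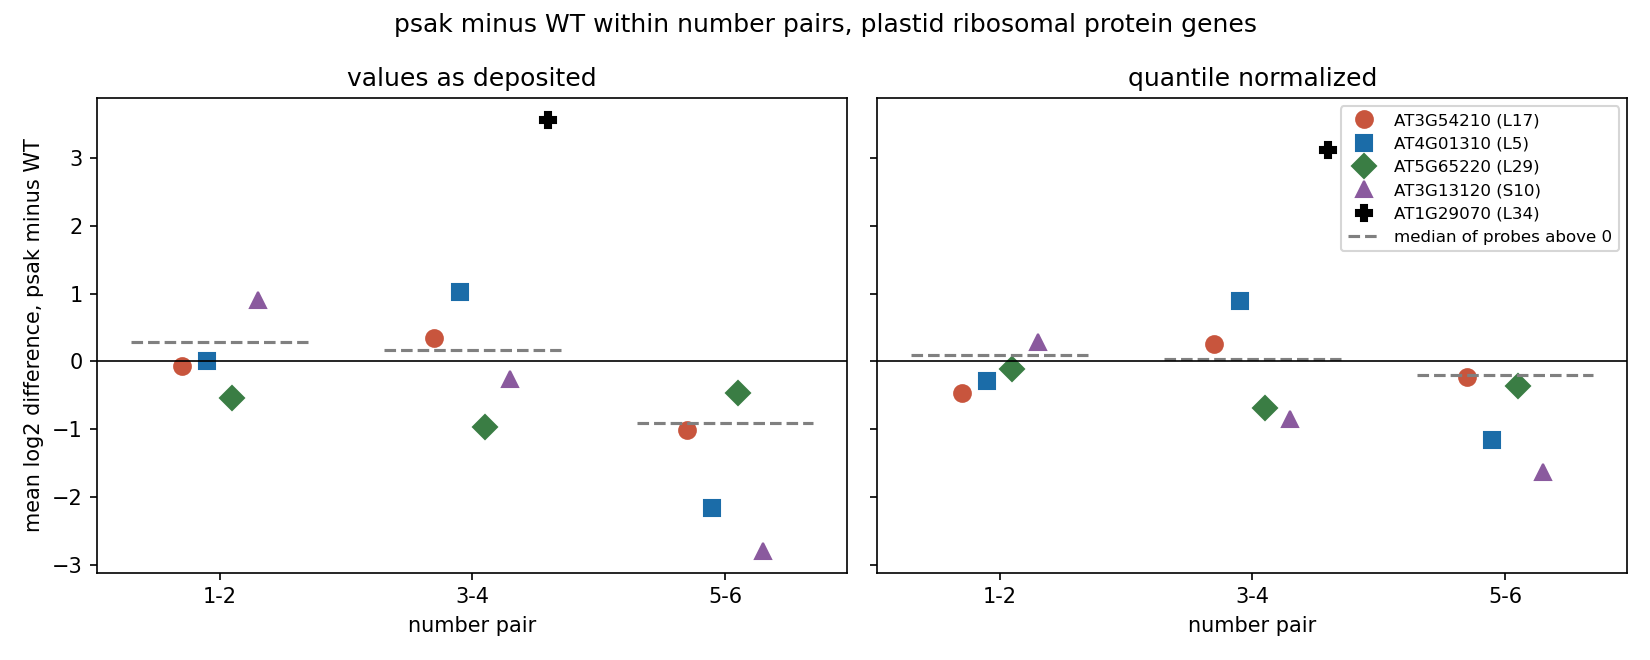
Mean log2 difference of psak minus WT (vertical axis) within number pairs 1-2, 3-4 and 5-6 (horizontal axis), from the values as deposited, left, and after quantile normalization, right. Symbols are genes of plastid ribosomal proteins, and dashed lines are the median of the 2358 probes above 0 in every sample. AT1G29070 has a value in numbers 3-4 alone, and AT3G54210 at -1.01 in numbers 5-6 lies close to the median of -0.90 as deposited.

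Of 41 nuclear genes listed for plastid ribosomal proteins, 6 had a probe of their own, and AT1G29070 and AT3G54210 were among the 4 of the large subunit. Of the 5 tested, 0 passed in limma as higher and 0 as lower, and 2 had an unadjusted p under 0.05, AT1G29070 and AT3G13120, against 29.2% of all probes. Their median log2 fold change was -0.18, against -0.0026 for all tested probes, and AT1G29070 was the only one above 0. AT5G65220, which encodes plastid L29, ran from 2.33 to 4.31 in WT, with a median of 3.80, and from 1.82 to 2.63 in psak, with a median of 2.18. It stood at -0.39 ± 0.20 on the log2 scale (limma adjusted p = 0.206), and with the values as deposited it passed at -0.66 (limma adjusted p = 0.0350). AT4G01310, for plastid L5, stood at -0.18 ± 0.37 and AT3G13120, for plastid S10 of the small subunit, at -0.73 ± 0.30 (limma adjusted p = 0.766 and 0.126). Without psak samples 5 and 6, AT5G65220 stood at -0.22, AT4G01310 at 0.16 and AT3G13120 at -0.39 (limma adjusted p = 0.404, 0.727 and 0.296). AT1G64510, for plastid S6, was above 0 in 1 WT and 2 psak samples, too few for the test without zeros. With 0.1 added to keep zeros its log2 difference was 0.10 (limma adjusted p = 0.703). No gene of the list of plastid translation and ribosome assembly factors had a probe of its own.

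In numbers 3-4, where AT3G54210 had a deposited log2 difference of 0.35, AT4G01310 stood at 1.03, AT3G13120 at -0.26 and AT5G65220 at -0.96. In numbers 5-6, where AT3G54210 stood at -1.01 and the median of probes at -0.90, AT4G01310 stood at -2.15, AT3G13120 at -2.79 and AT5G65220 at -0.47. The list genes thus had no common direction in numbers 3-4, and whether these genes differ from each other between pairs was not tested.

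The probes most like the members over the 12 samples were sought among the single-gene probes above 0 in every sample, by Spearman's rho of deposited intensities with zeros kept. For AT3G54210 these were AT3G52550, AT1G03810 and AT5G62360, with rho of 0.951, 0.930 and 0.874 among 474 candidates. For AT1G29070 they were AT1G26230 (Cpn60beta4, a subunit of the plastid chaperonin), AT3G15490 and AT3G54650 (FBL17, an F-box protein), with rho of 0.821, 0.810 and 0.802 among 475 candidates. These are the highest of many values, samples of 1 number pair and genotype share much of their variation, and AT1G29070 has 6 tied zeros, so they are given as a description.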

How the data were processed

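The authors deposited an intensity for every probe in every sample, on a linear scale that ends at 100. Their scanning, background correction and scaling are not given in the sources used here, and what a 0 stood for is unknown. Gene names come from the platform's table of probes, and 690 of 692 single-gene probes matched a locus of RefSeq's TAIR10.1 annotation. No probe sequences were used.

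Zeros were set to missing, other values were taken to log2 and quantile normalized, and probes with 2 or more values per group were fitted with limma 3.58.1 in R 4.3.3 (psak minus WT, 12 samples, two-sided, Benjamini-Hochberg over 2993 probes). The fit was tested on simulated data. Exact tests used all 12 deposited values, and scipy 1.17.1 gave Fisher's test.

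The members, lists and tests were chosen with earlier results of these data known. Named genes are both members, every list gene with its own probe, and the 3 single-gene probes most like each member. Same-numbered WT and psak samples were not taken as pairs. Alternatives were other normalizations, offsets, blocks, number pair means, variance settings and samples left out. A planned list of other ribosomal protein genes was not drawn up, because the tables used hold no product names.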

Additional observations from a re-analysis of the deposited data

Results flagged for a closer look

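Among 26 groups of 6 values (both scales of the ribosomal protein genes and 3 measures of the samples), 3 held 1 sample far from the other 5, with its gap to the nearest over the whole range above Dixon's critical value for 6 samples. Chance flags about 1 in 20 groups of independent, normally distributed values, and zeros and alike samples make the rate here unknown. AT1G29070 in WT had sample 6 apart, at a ratio of 0.725, and without that sample its log2 fold change passed the threshold. AT3G54210 in WT had sample 5 apart on the normalized log2 scale, at a ratio of 0.720, and without it the log2 fold change was -0.04 in place of -0.14. AT1G64510 in WT was above 0 in sample 2 alone, which gives a ratio of 1 by construction.

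For AT3G13120, plastid S10, the difference of psak and WT varied between number pairs (limma F-test of the interaction, adjusted p = 0.0215), a test that 23.1% of 2757 probes passed. Its normalized log2 differences were 0.29, -0.85 and -1.62 in numbers 1-2, 3-4 and 5-6, and the lowest of these lies on psak samples 5 and 6, which had the most probes at 0. The interaction also passed with the values as deposited, with median centring and among probes above 0 in all samples (limma adjusted p = 0.00060, 0.0024 and 0.0172), and not with 0.1 or 0.01 added to keep zeros (limma adjusted p = 0.0631 and 0.0896).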

How the results depend on the processing

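For AT3G54210, 22 of 23 alternatives kept direction and call, and 1, without psak sample 2, reversed at 0.034. Each sample left out in turn gave -0.27 to 0.034, and the 11 other alternatives -0.25 to -0.11. AT1G29070 kept its direction under all 22 alternatives run, with each sample left out at 2.37 to 3.65 and the others at 0.38 to 3.22. Where zeros were left out this direction was fixed, since every psak value above 0 exceeded every WT value. Only the settings that kept zeros, at 0.38 and 0.86, could have reversed it, so the count is not a measure of stability. AT1G29070 could not be fitted among probes above 0 in all samples. It passed without WT sample 6 (3.65), without psak samples 5 and 6 (2.94), with the number pair as a fixed block (3.11) and with the replicate number 1 to 6 as a block (3.11, limma adjusted p = 0.0280). Both blocks rest on numbers 3-4 alone, so they are not separate evidence. The replicate block changed no other call of these genes, and gave 433 calls over the array. Deviations of same-numbered WT and psak samples correlated at 0.080 to 0.239, above 0.1 for 4 of 6 numbers, and 5 of 6 WT samples correlated best with their own number in psak. The share of samples above 0 differed by -10 to 10 percentage points with 1 sample left out and by 25 without psak samples 5 and 6 (Fisher's exact p = 0.571), alternatives chosen, like those of the interaction, after the data were seen. Number pair means gave an exact permutation p of 0.4 for AT1G29070 and 0.5 for AT3G54210 (smallest possible 0.1).

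The 444 calls over the array became 283 with median centring, 154 with number pairs as a random block, 0 with number pair means (465 at an unadjusted p under 0.05) and 947 without psak samples 5 and 6, and ran from 327 to 583 with 1 sample left out. With the values as deposited, 146 probes were higher and 275 lower, against 243 and 201, and the median log2 fold change was -0.11. Of the 5 tested ribosomal protein genes, 0 passed, or 1 where AT1G29070 did, with the values as deposited (AT5G65220) or without psak 2 (AT3G13120). With 1 sample left out the count was 0 to 1. AT4G01310 reversed at 0.16 without psak samples 5 and 6 and at 0.023 without psak 6, and ran from -0.45 to 0.023 with 1 sample left out. The cause was not tested.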
